A study of Mus musculus with 2 samples.

Results

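The Frizzled receptors are the 10 genes Fzd1 to Fzd10, found on the arrays by the gene name that the scanner files give to each non-control probe. They had 13 probes of 39429 in all, and 12 of these, at least 1 for each of the 10 genes, were among the 25657 probes and 20506 genes tested. The RNA came from ureters of NMRI mouse embryos at E14.5 and was hybridised to 2 two-colour Agilent arrays. The RNA called Gata2cKO came from Tbx18(cre/+);Gata2(fl/fl) embryos, in which Cre is made from 1 allele of Tbx18, a gene of the mesenchyme around the ureter, and both Gata2 alleles are flanked by loxP sites. The control RNA came from Tbx18(+/+);Gata2(fl/?) embryos, without Cre, and carried 1 floxed Gata2 allele beside another that the label marks only with a question mark. Array 1 compared female RNAs with Gata2cKO in Alexa Fluor 647, and array 2 compared male RNAs with Gata2cKO in Alexa Fluor 555, so that the sex of the embryos and the way the dyes ran cannot be told apart, nor can loss of Gata2 and the Cre insertion in Tbx18. How many embryos gave each RNA is not stated in the labels. The p-values rest on the spread between these 2 arrays, moderated by a prior spread shared by all genes. That prior carried 4.68 degrees of freedom, against 1 from the arrays.

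Frizzled proteins are receptors with a cysteine-rich outer domain that binds Wnt ligands and a bundle of membrane-spanning helices that passes the signal to Dishevelled proteins inside the cell. With the co-receptors Lrp5 and Lrp6 they stabilise beta-catenin, and with other partners they orient cells in a tissue plane or act through calcium. In the mouse ureter Wnt7b and Wnt9b are made by the epithelium, and Fzd1 and the target gene Axin2 are expressed in the mesenchyme next to it, from which the smooth muscle forms. By sequence the mammalian receptors fall into the groups Fzd1, Fzd2 and Fzd7, then Fzd5 and Fzd8, then Fzd4, Fzd9 and Fzd10, and last Fzd3 and Fzd6.

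The median spot signal was 754 and 428 in the Gata2cKO channels of arrays 1 and 2, against 433 and 754 in the control channels, so the 647 dye was the brighter on both. Markers of the tissue were present: all 10 urothelial, all 7 smooth muscle and all 8 ureteric mesenchyme markers were well above background in all 4 channels. All 7 smooth muscle markers, 10 of 11 markers of neurons and glia, 6 of 7 of macrophages and 4 of 5 of skeletal muscle were lower in Gata2cKO on both arrays. Of all genes, 26.2% were lower and 27% higher on both. Of 10 urothelial markers 6 were higher and 0 lower, and of 8 of ureteric mesenchyme 3 were higher and 2 lower. Endothelium had 1 of 6 higher and 3 lower, and erythroid cells 1 of 5 higher and 3 lower. Mesothelium had 1 of 3 higher and 0 lower, and kidney progenitors 3 of 5 higher and 2 lower. Summed over its list, normalized smooth muscle signal was 33187 and 28729 in Gata2cKO against 48451 and 53455 in control, and neuron and glia signal was 28644 and 27087 against 54377 and 41123. Macrophage signal was 33329 and 33425 in Gata2cKO against 44699 and 41787 in control, and skeletal muscle signal was 5795 and 4009 against 7569 and 7302. Urothelial signal was 229456 and 247599 in Gata2cKO against 200927 and 233314 in control, and ureteric mesenchyme signal was 263784 and 279771 against 275053 and 243274. The part of these shifts in any Frizzled value was not tested, and in RNA of whole ureters fewer cells of a type and less RNA per cell cannot be told apart. The probe for the targeted gene, Gata2, read higher and not lower in the library labelled Gata2cKO (log2 ratios 0.33 and 0.54 on the arrays; limma adjusted p = 0.409). The deleted part of Gata2 is not described in the labels, so whether the Gata2 probe can check the label is not known. Tbx18, also listed as a check of the label, was higher on both arrays too (0.65 and 0.15; limma adjusted p = 0.66). Whether its probe can check the label is not known either, and every direction below rests on the labelled dyes.

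Fzd10 was the Frizzled gene that differed most between the RNAs. This receptor is known from the developing neural tube and limb of the mouse. Its only probe lies on chromosome 5 from 129109798 to 129109857 (mm9). Its raw spot signal was 3824 (647 dye) and 2242 (555 dye) in the RNA labelled Gata2cKO, against 915 (555 dye) and 2075 (647 dye) in control RNA. Within either dye the Gata2cKO signal was the higher. After normalization its log2 level was 11.50 and 11.55 in Gata2cKO and 10.25 and 10.62 in control, so the groups did not overlap. With 2 values a group this carries little weight, and the share of all genes without overlap was not counted. The groups also did not overlap for Fzd8, for Fzd9 and for the dimmer probes of Fzd2 and Fzd5, so this trait did not set Fzd10 apart. Gata2cKO over control gave 2.38-fold on the female and 1.90-fold on the male array. The mean was 2.13-fold (log2 ratio 1.09 ± 0.23, SD, n = 2; 95% interval 1.72-fold to 2.64-fold). By limma its adjusted p over the 20506 genes was 0.0714, so it did not pass the threshold of 0.05, with an unadjusted p of 0.000166. By the smaller of its array ratios it ranked 14 from the top of all 20506 genes, of which 5535 were higher in Gata2cKO on both arrays.

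**Figure D1:**
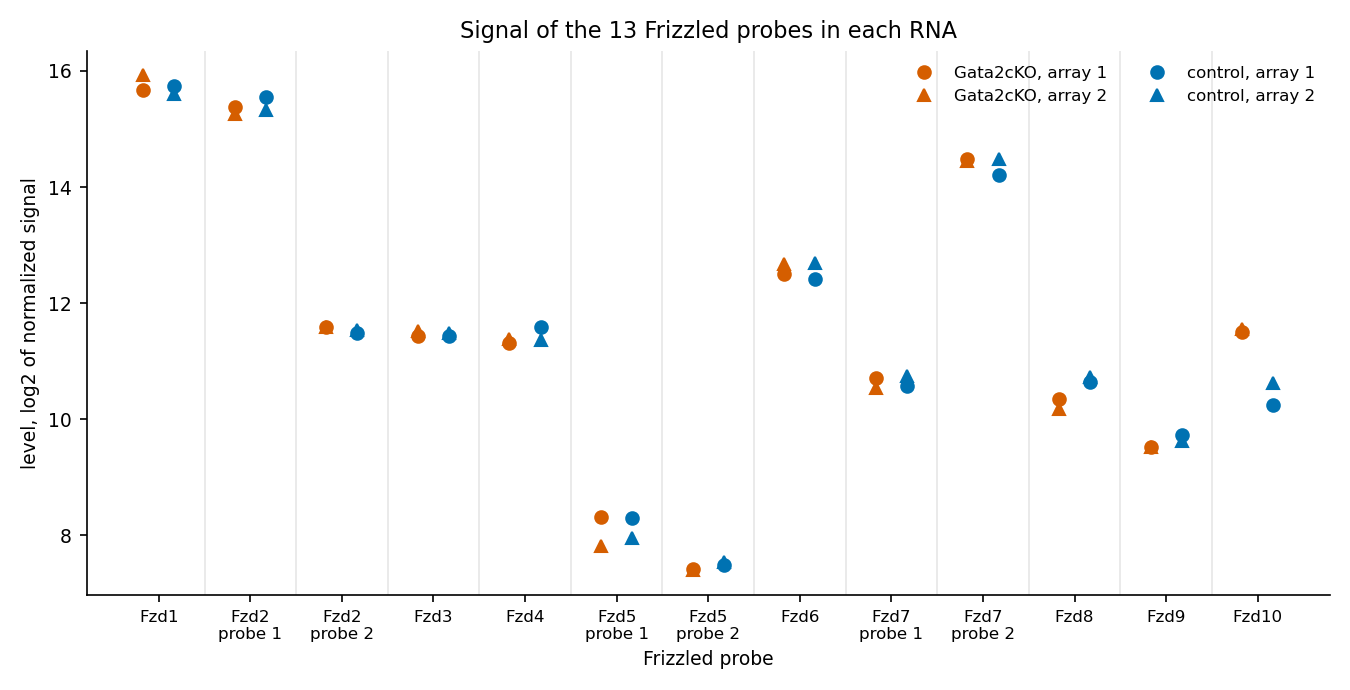
Normalized log2 signal (y axis) of each of the 13 Frizzled probes (x axis), with the 2 Gata2cKO RNAs in orange on the left and the 2 control RNAs in blue on the right of each probe; circles are array 1 and triangles array 2. The Gata2cKO points of Fzd10, at 11.50 and 11.55, lie above both control points, while heights of different probes cannot be compared, since probes differ in how strongly they bind.

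Whether Fzd10 passed depended on the processing. Its direction was the same under every alternative, and its size was close to the reported one except in the authors' deposited table, where it was larger. It passed with the scanner software's own processed signals (log2 ratio 1.16; adjusted p = 0.0165), without the filter on dim probes (adjusted p = 0.0455) and with a trended and robust prior (adjusted p = 0.000191). Under these settings 0.805%, 0.17% and 1.83% of the genes tested in each passed. It did not pass with median centring in place of loess (1.07; adjusted p = 1), where 0% of all genes passed. When RNAs were compared within a dye across the arrays, Gata2cKO of one array over control of the other, its log2 ratios were 0.85 in the 647 dye and 1.30 in the 555 dye (adjusted p = 0.0573, with 0.297% of all genes past the threshold). In the authors' deposited table, whose direction was inferred from its correlation with the scanner ratios and whose scale and centring stay unknown, the fold was 3.59 for array 1 and 3.65 for array 2, and 0% of all genes passed there (973 at an unadjusted p under 0.05). Some alternatives could not change the direction or size of Fzd10. No filter on dim probes, the trended and robust prior, Aquantile scaling and probe means all reuse its reported ratio. The mean within a dye is that of median centring shifted by a constant.

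Fzd4 and Fzd9, the other members of the same sequence group, did not differ as Fzd10 did. Fzd4, which is also the receptor of Norrin in the growth of retinal vessels, had log2 levels of 11.32 and 11.38 in Gata2cKO and 11.60 and 11.37 in control. Its array ratios had opposite signs, -0.28 and 0.01 on the log2 scale, with a mean of -0.14 ± 0.21 (SD, n = 2; limma adjusted p = 0.898). Fzd9, studied in mouse bone and hippocampus, had levels of 9.52 and 9.53 in Gata2cKO and 9.73 and 9.62 in control. The groups did not overlap, but the distance was small, with a mean log2 ratio of -0.15 ± 0.081 (SD, n = 2; limma adjusted p = 0.846). The 95% intervals ran from 0.739-fold to 1.12-fold for Fzd4 and from 0.75-fold to 1.09-fold for Fzd9.

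Since Gata2 encodes a factor that binds GATA sites, the 250 bases before the start of each gene were searched on both strands, overlaps counted, for GATA with A or T before it and A or G after it. The windows are from RefSeq on GRCm38.p6, where 6 of the 10 Frizzled genes had an entry (Fzd1, Fzd4, Fzd5, Fzd7, Fzd9 and Fzd10). In all, 26.5% of the 32851 windows held such a motif. Among the Frizzled windows only that of Fzd1 held one, with 2 matches, the first beginning 186 bases before the start. The window of Fzd10 held none, with 76.4% of its bases G or C, against 51.2% in that of Fzd1. A match is a description of the letters in this window alone. The Fzd10 window (chr5:128600856-128601105, plus strand) and the Fzd1 window (chr5:4758217-4758466, minus strand) are shown 5′ to 3′ because they belong to the receptor with the largest ratio and to the receptor with the motif, with the motif matches in capitals:
Fzd10: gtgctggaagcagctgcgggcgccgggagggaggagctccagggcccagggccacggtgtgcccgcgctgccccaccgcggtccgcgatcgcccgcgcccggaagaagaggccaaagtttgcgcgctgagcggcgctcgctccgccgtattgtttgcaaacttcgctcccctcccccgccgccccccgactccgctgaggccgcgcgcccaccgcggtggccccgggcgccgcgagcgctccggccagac
Fzd1: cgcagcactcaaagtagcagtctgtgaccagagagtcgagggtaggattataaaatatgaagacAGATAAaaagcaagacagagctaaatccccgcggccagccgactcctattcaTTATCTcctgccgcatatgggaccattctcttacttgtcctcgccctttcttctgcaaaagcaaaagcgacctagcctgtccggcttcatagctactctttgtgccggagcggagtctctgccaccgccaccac

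Fzd8 lay farthest in the other direction. It shares functions with Fzd5 in the developing mouse eye. Its probe, on chromosome 18 from 9214916 to 9214975 (mm9), gave log2 levels of 10.35 and 10.17 in Gata2cKO and 10.64 and 10.73 in control. Both Gata2cKO values were below both control values, which carries as little weight here as for Fzd10. Array 1 gave a log2 ratio of -0.28 and array 2 one of -0.56. Their mean was -0.42 ± 0.20 (SD, n = 2), or 0.746-fold with a 95% interval from 0.607-fold to 0.916-fold. The unadjusted p was 0.0135 and the limma adjusted p 0.453, so it did not pass. Within a dye across the arrays the values were -0.40 and -0.46, and in the authors' deposited table they were -0.43 and -0.26. With a trended and robust prior its adjusted p was 0.113.

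Fzd5 was measured closer to background than any other member. Its brighter probe (chromosome 1, 64781972 to 64782030, mm9) was still well above background in all 4 channels and was tested. That probe had a spot signal 4.81 to 6.94 times the local background. Its log2 levels were 8.33 and 7.81 in Gata2cKO and 8.30 and 7.96 in control. The difference between arrays was larger than that between the RNAs, and the mean log2 ratio was -0.06 ± 0.12 (SD, n = 2; limma adjusted p = 0.971). Its other probe, on chromosome 1 from 64779479 to 64779538, was not well above background in any of the 4 channels and was not tested.

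Fzd1, Fzd2 and Fzd7, which overlap in function in mouse heart and palate development, were bright on the arrays and did not pass the threshold. For Fzd1 and Fzd7 the SD between arrays was larger than the mean ratio, and for Fzd2 it was smaller. The Fzd1 probe (chromosome 5, 4754003 to 4754062, mm9) had log2 levels of 15.68 and 15.92 in Gata2cKO and 15.75 and 15.60 in control. Array 1 put Fzd1 slightly lower and array 2 higher in Gata2cKO, at -0.07 and 0.32, with a mean of 0.13 ± 0.27 (SD, n = 2; limma adjusted p = 0.93). In the authors' deposited table Fzd1 was higher in both columns, at log2 values of 0.90 and 0.51, a difference from the scanner values whose cause was not tested. Within a dye across the arrays the Fzd1 ratios were 0.04 and 0.11.

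For Fzd2 and Fzd7 the arrays held a pair of probes each, and the mean ratios of a gene's probes differed in sign. On each array taken alone the Fzd7 probes had the same sign and the Fzd2 probes opposite signs. The brighter Fzd2 probe (chromosome 11, 102467613 to 102467672) had levels of 15.38 and 15.27 in Gata2cKO and 15.55 and 15.34 in control, with a mean log2 ratio of -0.12 ± 0.066 (SD, n = 2). The other Fzd2 probe (102469045 to 102469104) had 11.60 and 11.60 in Gata2cKO and 11.49 and 11.54 in control, a mean of 0.09 ± 0.040. The brighter Fzd7 probe (chromosome 1, 59543192 to 59543251) had 14.48 and 14.45 in Gata2cKO and 14.20 and 14.48 in control, a mean of 0.12 ± 0.21. The other Fzd7 probe (59541367 to 59541426) had 10.71 and 10.54 in Gata2cKO and 10.57 and 10.75 in control, a mean of -0.04 ± 0.24. In a limma fit over all 25657 probes their adjusted p-values lay between 0.904 and 0.99.

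One probe of Fzd2 and one of Fzd7 target the same stretch of these related genes. Of the 78 pairs among the 13 Frizzled probes this pair was the most alike, with 42 of 50 overlapping bases identical (84%), against 53.5% for the next pair, so cross-binding between the transcripts of these paralogues cannot be told apart from their own signal. Both probes are shown 5′ to 3′ on the plus strand of mm9 (chr11:102467613-102467672 and chr1:59541367-59541426), with the bases identical in the overlap in capitals:
Fzd2: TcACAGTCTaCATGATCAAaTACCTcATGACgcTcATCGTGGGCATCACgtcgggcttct
Fzd7: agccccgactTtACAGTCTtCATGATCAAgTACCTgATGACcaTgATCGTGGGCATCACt
The other probe of each gene lies outside this stretch. For Fzd7 that was the brighter probe, used for the gene, while for Fzd2 the gene's value rests on the shared stretch.

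Fzd3 and Fzd6, receptors of planar polarity that guide axons and orient hair follicles in the mouse, were the most even. Fzd3 (probe on chromosome 14, 65854084 to 65854142, mm9) had log2 levels of 11.44 and 11.52 in Gata2cKO and 11.44 and 11.49 in control. Its mean log2 ratio was 0.02 ± 0.016 (SD, n = 2), with a 95% interval from 0.844-fold to 1.21-fold. Fzd6 (chromosome 15, 38869107 to 38869166) had 12.51 and 12.67 in Gata2cKO and 12.41 and 12.70 in control, a mean log2 ratio of 0.04 ± 0.086 and an interval from 0.852-fold to 1.23-fold. For both the groups overlapped, and the limma adjusted p was 0.994 for Fzd3 and 0.99 for Fzd6.

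Over the family, 0 of 10 genes passed an adjusted p of 0.05 by limma, where 0.0878% of the 20506 genes did, and 2 of 10 (Fzd10 and Fzd8) had an unadjusted p under 0.05, against 7.17% of all genes. On both arrays, and in the same direction, 1 of 10 (Fzd10) differed by 1.5-fold or more, as did 0.712% of all genes. The members' signs were spread much as those of all genes: 2 were higher and 3 lower in Gata2cKO on both arrays, against 27% and 26.2% of all genes, and 5 had opposite signs, against 46.8%. Opposite signs were found for 2 of 10, Fzd2 and Fzd9, in the authors' deposited table, against 56.8% of all genes. The median log2 ratio was -0.02 over the 10 genes and 0.00 over all genes. The 95% interval lay within a 1.5-fold difference in either direction for 8 of the 10, all but Fzd8 and Fzd10, and within a 2-fold difference for 9. Those intervals lean on a prior spread shared by all genes. The share of all genes with intervals this narrow was not counted, so these counts do not set the family apart from other genes. The 3 genes Fzd1, Fzd2 and Fzd7 were among the brightest 25% of genes, in which the arrays correlated at -0.572 over genes, against 0.389 outside it, and Fzd10 was outside it. Genes are not independent replicates, and these correlations carry no test.

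**Figure D2:**
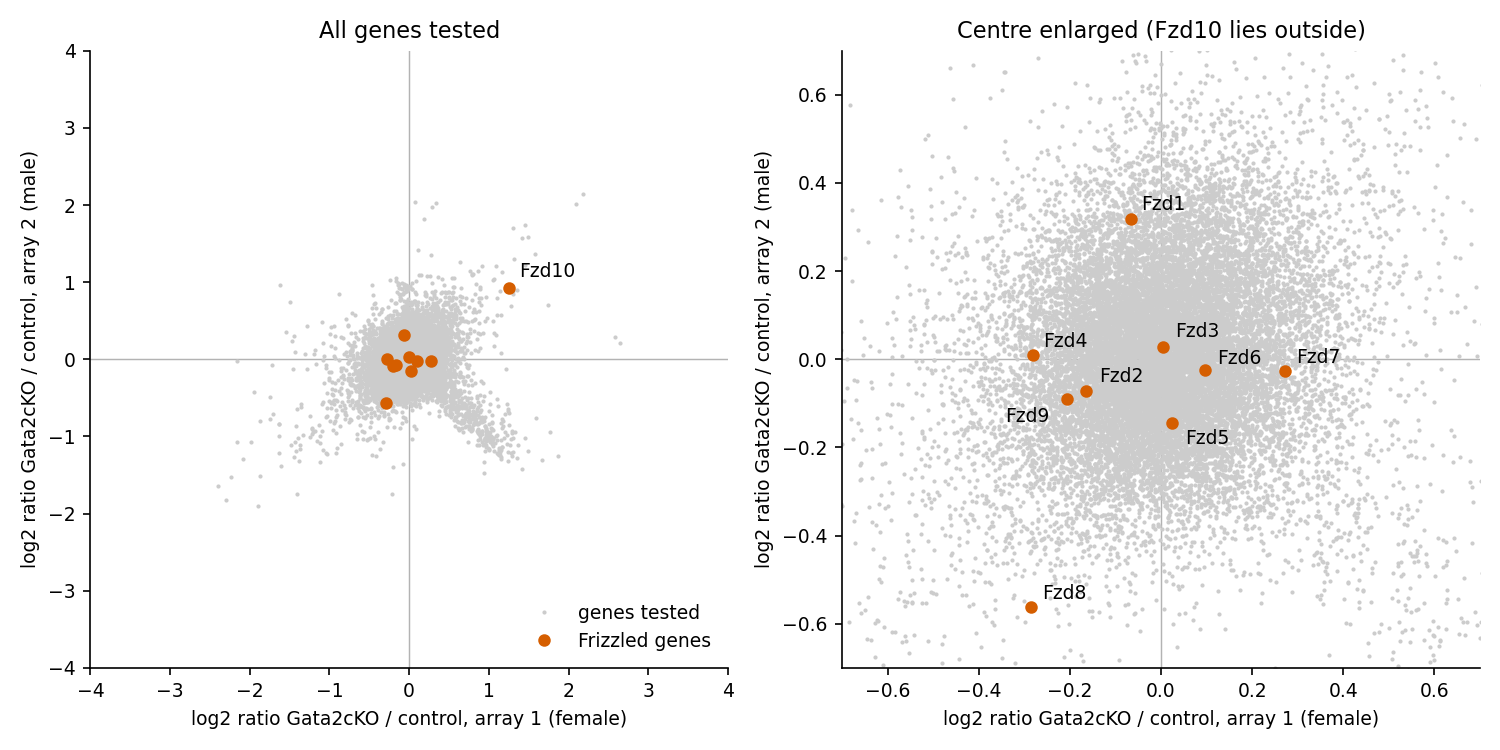
Log2 ratio of Gata2cKO over control on array 1 (x axis, female) against array 2 (y axis, male), with all 20506 genes in grey and the 10 Frizzled genes in orange; the right panel enlarges the centre. Fzd10 lies at 1.25 and 0.93, apart from the other 9, which range from -0.42 to 0.13 in their means, and the arm to the lower right holds genes brighter in the 647 dye on both arrays.

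**Figure D3:**
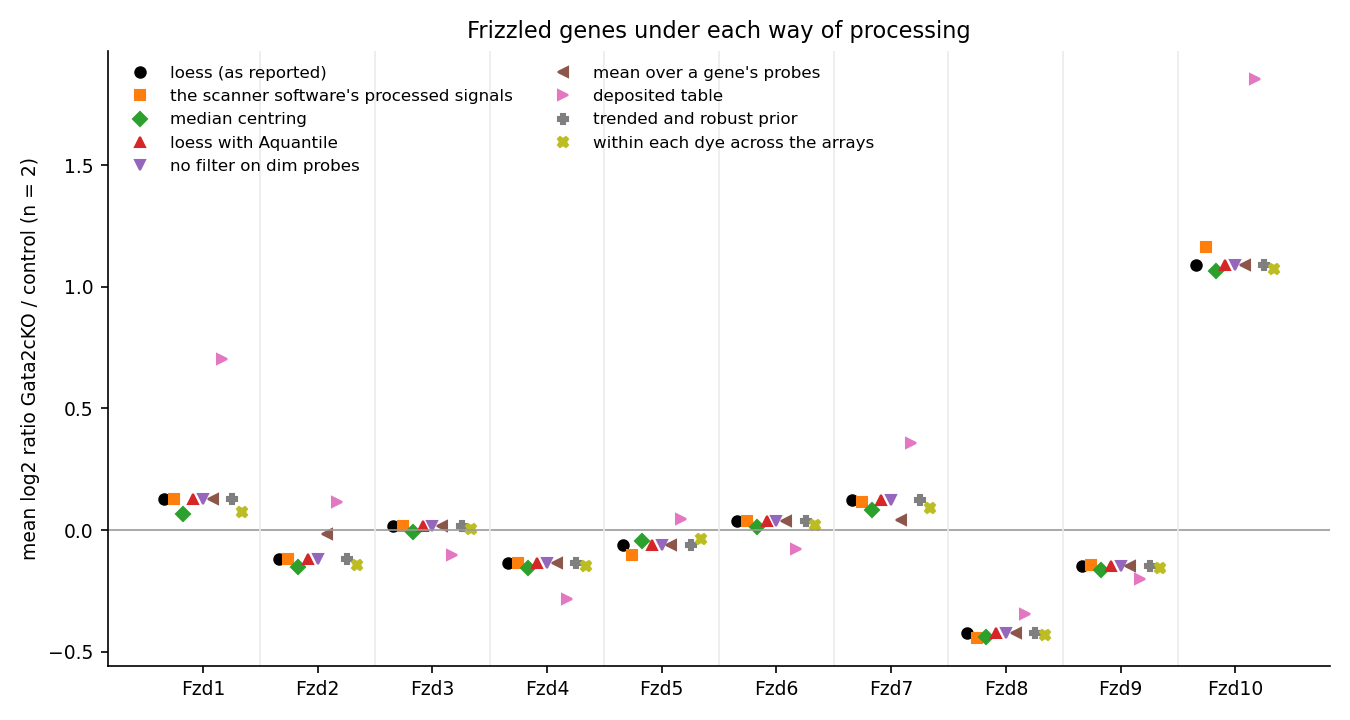
Mean log2 ratio of Gata2cKO over control (y axis, n = 2) of each Frizzled gene (x axis) under the reported processing (black circles) and the 8 alternatives that use both arrays. Fzd10 stays between 1.07 and 1.16 in all of them but the deposited table, where it is at 1.86, and Fzd8 stays below 0 in all of them. Aquantile scaling, no filter on dim probes and the trended and robust prior reuse the reported ratios, as do probe means except for Fzd2 and Fzd7.

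The ligands showed no difference past the threshold. Of 19 Wnt genes 11 were tested, of which 4 were higher and 3 lower in Gata2cKO on both arrays and 0 passed by limma (3 at an unadjusted p under 0.05), with a median log2 ratio of -0.04. Of all genes, 27% were higher and 26.2% lower on both arrays, and 7.17% had an unadjusted p under 0.05. The same shares stand beside the counts of the lists below. The epithelial ligands Wnt7b and Wnt9b had log2 ratios of 0.26 and -0.09, and of 0.34 and 0.01, on arrays 1 and 2. Wnt5a, a ligand of the beta-catenin-independent branches, had -0.31 and 0.24. Ranked by the smaller of the 2 array ratios among genes of the same sign on both arrays, the first was Wnt11 (-0.57 and -0.64; adjusted p = 0.197), a ligand of the ureteric bud tip in the kidney, followed by Wnt10a (0.37 and 0.28) and Wnt5b (-0.47 and -0.21). The secretion genes Porcn and Wls had opposite signs on the arrays. Ndp, which encodes the Fzd4 ligand Norrin, was at 0.44 and 0.74 (mean 0.59 ± 0.21, SD, n = 2; adjusted p = 0.249), and Tspan12, which encodes a partner of Fzd4 in that signal, at 0.15 and 0.20 (adjusted p = 0.808).

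Co-receptors and other Wnt receptors held no gene past the threshold. Of 6 tested, 4 had opposite signs on the arrays, against 46.8% of all genes. By limma 0 passed (1, Ptk7, at an unadjusted p under 0.05), and the median log2 ratio was -0.01. Lrp5 was at 0.09 and -0.02, Lrp6 at -0.20 and 0.12, and the Wnt5a receptor gene Ror2 at -0.09 and -0.01. Ryk, another Wnt receptor gene, was at -0.07 and 0.10, and Ptk7 of the planar polarity pathway at 0.20 and 0.43. The membrane ligases Znrf3 and Rnf43 remove Frizzled receptors from the cell surface, and R-spondins with their Lgr receptors block these ligases. Of 7 tested genes of this system, 4 were higher and 2 lower on both arrays, against 27% and 26.2% of all genes. None passed, with 3 at an unadjusted p under 0.05, against 7.17% of all genes. Rnf43 was at 0.47 and 0.17, Znrf3 at 0.06 and -0.19, and Lgr5 at -0.46 and -0.27. Rspo1 was at 0.27 and 1.36 (mean 0.81 ± 0.77, SD, n = 2; adjusted p = 0.535), so its mean rests mostly on array 2, and without that array it would be 0.27. In the authors' deposited table Rspo1 was at log2 values of 1.67 and 1.77, a difference from the scanner value of array 1 whose cause was not tested.

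Among secreted inhibitors 1 of 14 passed, Sostdc1, an antagonist that binds the Lrp co-receptors and BMPs. It rose to a log2 ratio of 2.06 ± 0.058 (SD, n = 2; limma adjusted p = 0.0209). The other inhibitors went both ways, 6 of the 14 being higher, Sostdc1 included, and 4 lower on both arrays. An unadjusted p under 0.05 was found for 6 of the 14, against 7.17% of all genes. The secreted Frizzled-related decoys did not move together. Sfrp1 was at -0.17 and -0.26, Sfrp2 at 0.13 and 0.08, and Frzb at -0.14 and -0.36. Sfrp5 was at 0.76 and 0.34 (adjusted p = 0.374) and Sfrp4 at 0.09 and -0.90 (adjusted p = 0.795), both outside the rule for named genes and chosen after their values were seen. Wif1, which binds Wnt ligands and was chosen after its values were seen, was at 1.06 and 0.49 (adjusted p = 0.243). Inside the cell, the Dishevelled genes that Frizzled receptors act on were at 0.01 and -0.19 (Dvl1), 0.21 and -0.26 (Dvl2) and -0.002 and -0.16 (Dvl3). Of 14 cytoplasmic genes 0 passed (1 at an unadjusted p under 0.05), and the first by the smaller array ratio were the kinase genes Gsk3b (0.24 and 0.60; adjusted p = 0.535) and Csnk1a1 (0.15 and 0.13), followed by Dact3 (-0.11 and -0.19).

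Transcription factors and target genes of the pathway had a median log2 ratio of 0.11, and 0 of 11 passed (3 at an unadjusted p under 0.05, against 7.17% of all genes). On both arrays 7 were higher and 0 lower, against 27% and 26.2% of all genes, and 4 had opposite signs, against 46.8%. Nkd1, a feedback inhibitor, was at 0.44 and 0.47, Tnfrsf19 at 0.36 and 0.64, and the T-box gene Tbx3 at 0.33 and 0.39 (adjusted p = 0.32, 0.35 and 0.481). Axin2 was at -0.17 and 0.09 and Lef1 at 0.20 and 0.01. Of 10 planar polarity genes 0 passed (1 at an unadjusted p under 0.05). Celsr3, a cadherin of axon tracts, was at -1.02 and -0.74 (adjusted p = 0.106), Celsr1 at 0.19 and 0.17, and Daam2 at -0.15 and -0.09. Smo, the Hedgehog pathway receptor of the same class as the Frizzled proteins, was at -0.16 and 0.31. Over all 78 tested of the 90 listed genes the median was 0.02 with 1 call, against 0.00 over all genes, of which 0.0439% were called higher. Of the 78, 19 had an unadjusted p under 0.05, against 7.17% of all genes.

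**Figure D4:**
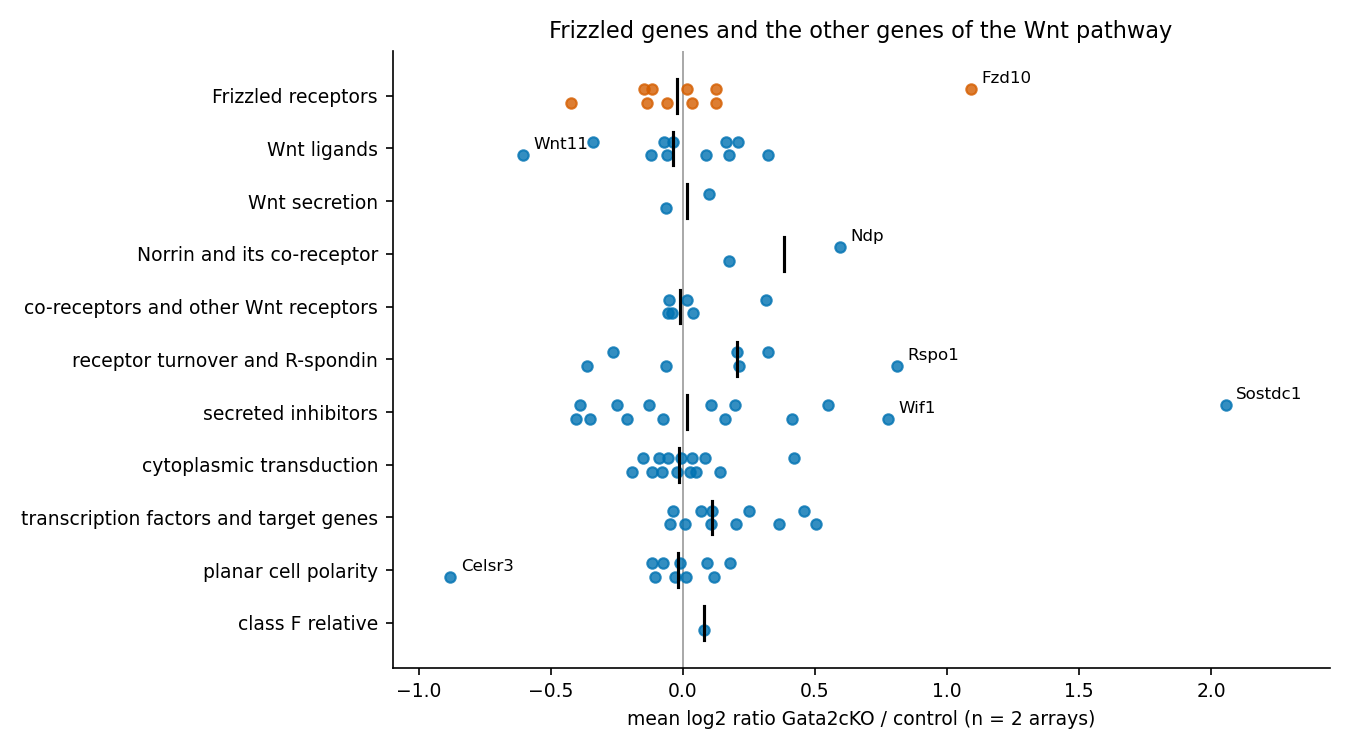
Mean log2 ratio of Gata2cKO over control (x axis, n = 2 arrays) of the 10 Frizzled genes (orange) and of the tested genes of each Wnt pathway list (blue), 1 point a gene, with black bars for list medians and names beyond 0.55 in size. Fzd10 at 1.09 and Sostdc1 at 2.06 are the largest positive values, and most genes lie close to 0.

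The genes whose 2 array ratios lay nearest to those of Fzd10 were the potassium channel gene Kcnma1 (1.31 and 0.89), the ephrin receptor gene Epha8 (1.35 and 0.89), the tight junction gene Cldn1 (1.11 and 0.80), the glutamate receptor partner gene Neto2 (1.06 and 1.02) and the regulator gene Dach2 (1.16 and 1.13). Their Euclidean distances to Fzd10 ran from 0.0706 to 0.215 over 2 arrays, and 0 of these 5 passed by limma (adjusted p between 0.0503 and 0.0919). Of the 3 protein-coding genes on either side of Fzd10 in the RefSeq order, 2 were tested, Slc15a4 (-0.04 and 0.15) and Stx2 (-0.04 and -0.26), and neither had a ratio near that of Fzd10.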

How the data were processed

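Ureter RNA was measured on 2 dye-swapped arrays. The authors quantified the scans in Agilent Feature Extraction 10.7.3.1, per the submitters' processing notes, and the file headers place probes on mm9. The deposited files give mean spot signal and median background as intensity, processed signals, and the scanner's own log10 ratio (red over green), which no test used. The value table deposited by the authors has a signed fold per probe (28% and 28.3% at exactly 1, median 1 in both columns). The sources used here do not state its making. Its log2 values correlated with the scanner ratios at 0.358 and 0.273, which set its direction, and it served only as an alternative.

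Background was corrected by normexp (offset 50) and ratios were normalized by loess (span 0.3). Of 43020 non-control spots an array, 255 and 178 with outlier flags were left out and 0 were saturated. Array 2 was turned to run Gata2cKO over control. Probes well above background on both arrays in 1 group were kept, each gene standing on its brightest probe. Levels are after Aquantile scaling. Probe accessions were named through RefSeq (GRCm38.p6) for 26412 of 39429 probes, and exons and UTRs were not assigned. Ratios were tested against 0 by lmFit and eBayes (limma 3.58.1, R 4.3.3), two-sided, Benjamini-Hochberg adjusted, with 1 residual degree of freedom and 4.68 from the prior. The code was tested on simulated data. Figures and sequences used Python 3.11.15, pandas 2.3.3, biopython 1.88 and matplotlib 3.10.9. The number of arrays limits the precision.

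The members, lists and tests were chosen with earlier results of these data known. Named Wnt pathway genes were, per list, those past the threshold or else the 3 with the largest ratio of the same sign (by the smaller of the 2 array ratios), plus ligands, receptors and transducers a reader looks for first. The 5 genes nearest to Fzd10 were taken by distance over the arrays.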

Additional observations from a re-analysis of the deposited data

Results flagged for a closer look

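On the female array (array 1) and the male array (array 2) 5 Frizzled genes had opposite signs, with 1 array for each sex. The difference was not tested, and sex cannot be told apart from dye orientation. As the log2 ratio of array 1 minus that of array 2, it was -0.39 for Fzd1, -0.29 for Fzd4, 0.17 for Fzd5, 0.12 for Fzd6 and 0.30 for Fzd7. The same held for 14 further genes named in the text, again untested. Among receptors and ligands the differences were 0.11 for Lrp5, -0.31 for Lrp6, -0.17 for Ryk, -0.55 for Wnt5a, 0.35 for Wnt7b and -0.47 for Smo. For Znrf3 it was 0.24, for Dvl1 0.19, for Dvl2 0.47, for Axin2 -0.26, for Porcn -0.79, for Wls -0.22, for Sfrp4 0.99 and for Slc15a4 -0.19. Opposite signs were found in 46.8% of all genes tested.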

How the results depend on the processing

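Of the 80 values of the 10 Frizzled genes under the 8 alternatives that use both arrays, 72 kept their direction and their side of the threshold, 5 turned in sign and 3, all of Fzd10, passed it. Many of these directions could not turn. Aquantile scaling, no filter on dim probes and the trended and robust prior reuse the reported ratios. Probe means do so as well for all members but Fzd2 and Fzd7. In the deposited table the mean log2 ratio was 0.12 for Fzd2, -0.10 for Fzd3, 0.046 for Fzd5, -0.077 for Fzd6 and 0.25 for the dimmer Fzd7 probe, each of the opposite sign to the reported one, and with median centring Fzd3 was at -0.0058. The cause was not tested. Fzd10, at 1.09, passed with processed signals (1.16), with no filter on dim probes and with a trended and robust prior (1.09 each), so that the count of Frizzled genes past the threshold was 1 under each of these. With 1 array left out its log2 ratio ranged from 0.93 to 1.25, and the count of Frizzled genes at least 1.5-fold was 1 either way. In the deposited values 8 Frizzled genes had the same sign on both arrays, against 5. Over all genes 18 passed by limma, against 165 with processed signals, 54 with no filter, 376 with a trended and robust prior, 61 within a dye across the arrays, an alternative chosen after seeing the data, and 0 each with median centring and in the deposited table (492 and 973 at an unadjusted p under 0.05). At least 1.5-fold with the same sign were 146 genes, against 284 with processed signals and 394 in the deposited table. On 1 array alone 701 to 708 were that large. Of the Wnt pathway genes 1 passed, against 2 with processed signals, 2 within a dye, 7 with a trended and robust prior and 0 each with median centring and in the deposited table. Their median of 0.02 became -0.0065 with median centring, 0.0054 over probe means, 0.0018 within a dye and 0.059 in the deposited table, and 0.036 to 0.057 with 1 array left out. Signal over background limits Fzd5 most, at 4.81 to 6.94 times background. The reported test is itself paired, since each ratio sets the 2 RNAs of 1 array and sex against each other, and the values within a dye are its form across the arrays.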
